A study of Mus musculus with 4 samples.

Results

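The replication-dependent histone genes are the protein-coding rows of the gene table whose symbol starts with Hist1h, Hist2h, Hist3h or Hist4h. There were 35 such genes among 42977 rows: 5 for the linker histone H1, 13 for H2a, 11 for H2b, 3 for H3 and 3 for H4. No symbol starting with Hist4h was found. The data are RNA sequencing of exosomes, small vesicles that cells release, from the conditioned medium of rat bone marrow mesenchymal stem cells (MSCs). MSC-Exo came from MSCs given DMSO, the solvent, and MSCATV-Exo from MSCs given 1 µmol/L of atorvastatin (ATV), an inhibitor of cholesterol synthesis, with 2 libraries in each group. The cells of both groups came from male SD rats aged 6 to 8 weeks and were used at passages 3 to 4. The length of the pretreatment is uncertain, since one label field has 24 h and another 48 h, and the samples are registered as mouse although the cells and the genome build are of rat. The labels do not say whether the 2 libraries of a group came from separate animals or cultures. The p-values of the tests run here therefore measure only the spread between these libraries, which may be technical. What the q-values deposited by the authors measure is not known, since the test behind them is not stated in the sources used here. Values listed without a library name are in the order MSC-Exo replicates 1 and 2, then MSCATV-Exo replicates 1 and 2.

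DNA is wound around an octamer made of an H3 and H4 tetramer and of H2a and H2b dimers, and linker histone H1 binds where the DNA enters and leaves this core. The genes studied here supply most of the histone protein needed when DNA is copied, lie in clusters, have no introns in most copies, and are transcribed mainly in S phase. Their mRNA ends in a conserved stem-loop bound by SLBP and not in a poly(A) tail, so its recovery depends on how a library is made; the labels name total RNA as the input and do not say whether poly(A) selection or removal of ribosomal RNA was used. In a bulk exosome library, fewer vesicles that carry an RNA and less of that RNA in each vesicle cannot be told apart.

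Histone genes took a small part of each library. Their counts summed to 782, 1206, 1248 and 1058, of totals of 5350295, 5355098, 5947020 and 5598378 gene counts. This was 0.0146%, 0.0225%, 0.021% and 0.0189% of the gene counts, with Wilson 95% intervals of 0.0136 to 0.0157%, 0.0213 to 0.0238%, 0.0199 to 0.0222% and 0.0178 to 0.0201%. The share was lowest in MSC-Exo replicate 1, whose interval did not meet any of the other 3, and these intervals cover counting error only. A histone gene had a median of 16, 29, 28 and 25 counts and at most 149, so each single value rests on few reads. Of the 35 genes, 27, 32, 30 and 30 had at least 1 count. As a check of the labelled cell type, the 12 MSC markers ranged widely in mean RPKM (reads scaled by gene length and by the library's total). Vim (vimentin) had 206.9, Col1a1 (collagen I) 34.5, Itgb1 31.2 and Thy1 20.3 RPKM, while the surface markers Vcam1, Alcam, Cd44 and Nt5e had 1.95 to 4.09 RPKM and Col1a2 was at 0 in all libraries. The median MSC marker had 6.77 RPKM, beside 5.60 for the leukocyte, 5.41 for the endothelial and 5.34 for the adipocyte markers. It was 4.66 RPKM for the osteoblast and 2.52 RPKM for the erythroid markers, and 4.76 RPKM for all protein-coding genes. Each list was also taken as 1 unit, with its summed counts divided by its summed gene lengths. On this measure the MSC markers had 18.8 to 21.0 RPKM in each library, a higher level set by a few genes. The 8 leukocyte markers had 3.62 to 5.40 RPKM, the 7 erythroid markers found 3.19 to 5.12 and the 5 endothelial markers 4.83 to 5.87. The 4 adipocyte markers had 4.41 to 5.67 RPKM and the 4 osteoblast markers 4.05 to 5.53.

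Levels between genes were compared as RPKM, which corrects for gene length, beside a background of 1189 olfactory receptor genes, which are largely silent outside the nose and also have few introns in their coding part. The median histone gene had 4.12, 9.41, 6.16 and 7.03 RPKM, and the median olfactory receptor gene 2.48, 2.36, 1.71 and 2.28 RPKM. The ratio of these medians was therefore 1.66, 3.98, 3.61 and 3.09. MSC-Exo replicate 1 again stood lowest, and there the histone median was also below that of all 22633 protein-coding genes, which was 4.74 RPKM. In the other libraries the protein-coding median was 4.70, 4.12 and 4.54 RPKM, below the histone median in each. The 90th percentile of the olfactory receptor genes was 8.24, 7.38, 7.53 and 7.32 RPKM, and 10, 18, 17 and 17 histone genes were above it.

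Averaged over the 4 libraries, 22 of 35 histone genes (62.9%) were above the olfactory receptor 90th percentile of 6.09 RPKM, against 32.9% of all protein-coding genes. Above the olfactory receptor 99th percentile of 10.5 RPKM were 12 histone genes, and above the highest olfactory receptor gene, at 14.6 RPKM, were 6. Histone genes are short, with a median length of 528 bases against 942 bases for the olfactory receptor genes. Among genes with lengths between the lower and upper quartile of the histone lengths, 11 of 17 histone genes (64.7%) and 403 of 1153 protein-coding genes (34.95%) were above that 90th percentile; 1 of 10 olfactory receptor genes of that length was. By family, the median of the mean RPKM was 9.72 for H1, 9.11 for H2a, 4.16 for H2b, 10.7 for H3 and 6.24 for H4. The numbers above the 90th percentile were 5 of 5, 9 of 13, 4 of 11, 2 of 3 and 2 of 3 in the same order. H2b thus had the lowest family median, and all H1 genes were above the background limit when averaged over the 4 libraries. In single libraries, Hist1h1a and Hist1h1c were always above that library's 90th percentile. Hist1h1b was below it in both MSCATV-Exo libraries, with 2.01 and 6.675 RPKM. In MSC-Exo replicate 1 and MSCATV-Exo replicate 2, Hist1h1d (7.93 and 5.68 RPKM) and Hist1h1t (4.77 and 1.20 RPKM) were below it. No test was made of these differences in level.

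**Figure D1:**
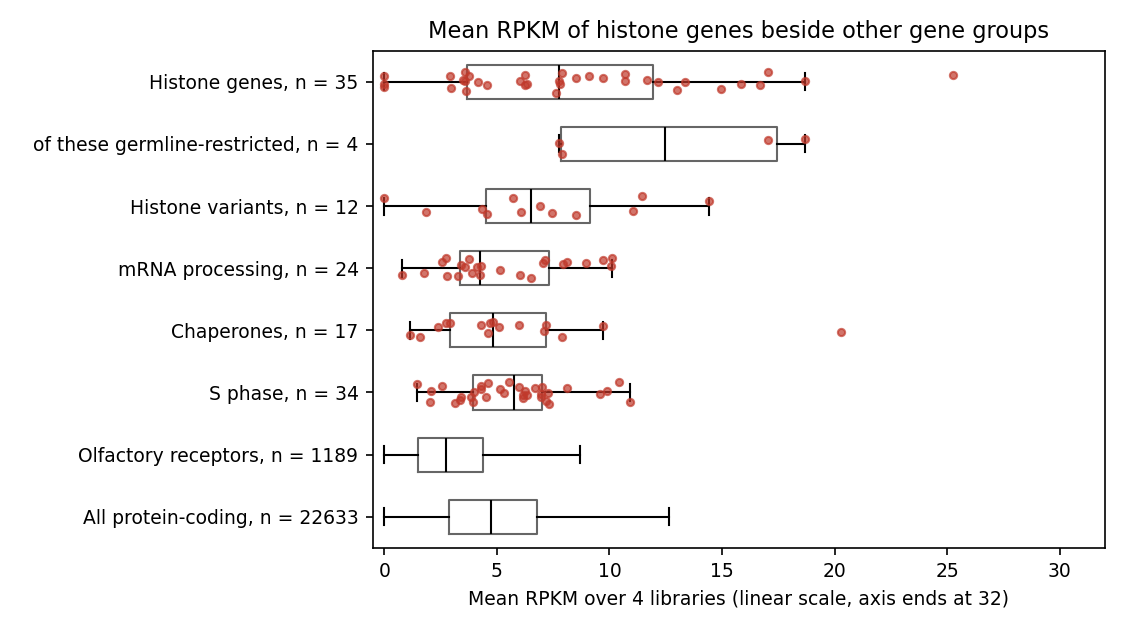
Mean RPKM over the 4 libraries (linear horizontal axis) for histone genes, related gene lists, olfactory receptor genes and all protein-coding genes. Red points are single genes (not drawn for the last 2 groups), boxes run from the lower to the upper quartile with the median as a line, and whiskers reach the farthest gene within 1.5 times the box length. Most histone genes lie to the right of the olfactory receptor box, and 1 H4 gene, Hist2h4, reaches 25.3 RPKM.

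The 5 linker histone genes all lie on chromosome 17 of the rat build rn6. Hist1h1a, a somatic H1 gene (chr17:43614101-43614844, minus strand), had the highest mean level of the family at 16.7 RPKM. Its counts were 78, 70, 95 and 34, with the highest and the lowest value both in MSCATV-Exo, so the groups overlapped. Hist1h1c, the most highly counted somatic H1 gene (chr17:43638938-43640445, minus strand), had 71, 76, 149 and 100 counts. Both MSCATV-Exo libraries were above both MSC-Exo libraries, at 22.6 ± 6.68 against 13.3 ± 0.772 CPM (counts scaled to a common library total; SD, n = 2). The log2 fold change of Hist1h1c, MSCATV-Exo over MSC-Exo, was 0.76 ± 0.46 (SE), with an unadjusted p of 0.127 in edgeR's quasi-likelihood test. Hist1h1b, another somatic H1 gene (chr17:44766313-44766981, plus strand), went the other way, with 51, 40, 8 and 25 counts. Its groups did not overlap and its log2 fold change was -1.47 ± 0.96, with an unadjusted edgeR p of 0.154. Hist1h1d (chr17:43734461-43735120, plus strand) had 28, 38, 57 and 21 counts, and its groups overlapped. Hist1h1t, the testis-specific H1 (chr17:43675190-43675934, minus strand), had 19, 46, 60 and 5 counts; its MSCATV-Exo replicates held both the highest and the lowest value. None of the 5 reached an adjusted p under 0.05.

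H2a had the largest number of genes. Hist1h2aa, a germline-restricted H2a gene (chr17:43422454-43422846, minus strand), had the highest mean level of the family, 18.7 RPKM. It had 40, 36, 37 and 50 counts, and its groups overlapped. Hist1h2ah (chr17:43632354-43632851, plus strand) had 16, 57, 61 and 33 counts, with both groups' values interleaved. Hist1h2ak (chr17:44840990-44841382, minus strand) had 0, 29, 28 and 61 counts; it was listed at 0 in MSC-Exo replicate 1 and was about equal in MSC-Exo replicate 2 and MSCATV-Exo replicate 1. Hist1h2ai (chr17:44794087-44794563, plus strand) had the smallest p of all histone genes. It had 12, 8, 51 and 61 counts, which is 1.81 ± 0.495 CPM in MSC-Exo and 10.1 ± 1.09 CPM in MSCATV-Exo (SD, n = 2), a 5.58-fold higher mean. Both MSCATV-Exo values were well above both MSC-Exo values. The log2 fold change of Hist1h2ai was 2.47 ± 0.91, with an unadjusted edgeR p of 0.0203 and an adjusted edgeR p of 1.00 over the 33480 genes tested; the adjusted DESeq2 p was 0.146. Its fold change stayed between 2.22 and 2.76 on the log2 scale when single libraries were left out. Since its groups did not overlap, the direction could hardly change in these runs.

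Further H2a genes, described here after their values were seen, show how a single library can set a gene's level. Hist1h2an had 12, 22, 106 and 8 counts, so its higher MSCATV-Exo mean came from MSCATV-Exo replicate 1 alone. Hist2h2ac had 0, 2, 30 and 0 counts and Hist1h2af 2, 44, 0 and 5, each with 1 library far above the others. Hist2h2ab had 2, 1, 2 and 21 counts, and all but MSCATV-Exo replicate 2 were at or below 3 counts, the level that a count of 0 allows. Hist1h2ac had 10, 61, 14 and 47 counts, high in replicate 2 of both groups, and Hist1h2ao had 2, 30, 13 and 24. Hist3h2a, which belongs to the small cluster on chromosome 10, had 46, 115, 44 and 55 counts, and Hist1h2ail1 had 33, 29, 37 and 20. In these last 4 genes the groups overlapped. Hist2h2aa3 was at 0 in all libraries, which allows up to 0.504 to 0.561 CPM in a library.

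Among the H2b genes, Hist1h2bh (chr17:43679925-43689311, minus strand) stood apart by level. It had 87, 77, 64 and 105 counts and a mean of 15.8 RPKM, and the next H2b gene had 7.88 RPKM. Its groups overlapped, and its log2 fold change was 0.03 ± 0.50. That next gene was Hist1h2ba, the testis-specific H2b (chr17:43423111-43423580, plus strand), with 12, 26, 31 and 14 counts. Hist1h2bk (chr17:44527421-44527801, minus strand) had 0, 13, 9 and 32 counts, with 9 in MSCATV-Exo replicate 1 below 13 in MSC-Exo replicate 2. Hist1h2bo, described after its values were seen, was the only H2b gene whose groups did not overlap, with 0, 11, 17 and 30 counts. Its log2 fold change was 2.05 ± 1.78, and 1 of its 2 MSC-Exo libraries was at 0. Of the other H2b genes, also described after their values were seen, Hist2h2be had 42, 53, 86 and 25 counts and Hist1h2bcl1 23, 29, 4 and 39. Hist1h2bd, Hist1h2bf, Hist3h2ba and Hist3h2bb had between 0 and 36 counts in each library, and Hist1h2bl was at 0 in all 4. In 5 of the 11 H2b genes, Hist1h2bk, Hist1h2bo, Hist1h2bf, Hist3h2ba and Hist3h2bb, the SE of the log2 fold change was between 1.78 and 2.02.

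The 3 H3 genes lie in 3 different clusters. Hist3h3, the testis-specific H3 (chr10:45304696-45305106, plus strand), had the highest level, 17.1 RPKM on average, with 27, 66, 39 and 23 counts. The highest value was in MSC-Exo and the lowest in MSCATV-Exo, but the groups overlapped. Hist1h3a (chr17:43616206-43616735, plus strand) had 30, 45, 26 and 24 counts. Both MSCATV-Exo libraries were below both MSC-Exo libraries, at 4.52 ± 0.339 against 6.81 ± 1.99 CPM (SD, n = 2), and the log2 fold change was -0.59 ± 0.88. Hist2h3c2 (chr2:198390024-198418075, plus strand) had 25, 12, 28 and 30 counts, with MSCATV-Exo higher in both libraries and a log2 fold change of 0.64 ± 1.08. Neither difference was larger than its SE.

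Of the 3 H4 genes, 2 had counts, and in both the groups did not overlap, as in 33.5% of all genes tested; MSCATV-Exo was higher in one (16.1% of all genes) and lower in the other (17.4%). Hist2h4 (chr2:198411955-198412350, minus strand) had the highest mean RPKM of all 35 genes. It had 49, 89, 37 and 45 counts, or 23.1, 42.0, 15.7 and 20.3 RPKM, and was lower in MSCATV-Exo, at 7.40 ± 0.885 against 12.5 ± 5.25 CPM (SD, n = 2). The log2 fold change was -0.76 ± 0.65, with an unadjusted edgeR p of 0.267. Hist1h4b (chr17:44522144-44526587, plus strand) had 28, 19, 86 and 51 counts and was higher in MSCATV-Exo, at 12.4 ± 4.70 against 4.26 ± 1.11 CPM (SD, n = 2). This was a 2.92-fold higher mean, with a log2 fold change of 1.54 ± 0.73 and an unadjusted edgeR p of 0.0599; the adjusted DESeq2 p was 0.452. Hist2h4a, on chromosome 4 (chr4:170800539-170800979, minus strand), was at 0 in all libraries. Neither gene passed the test, and the difference between the 2 was not tested.

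**Figure D2:**
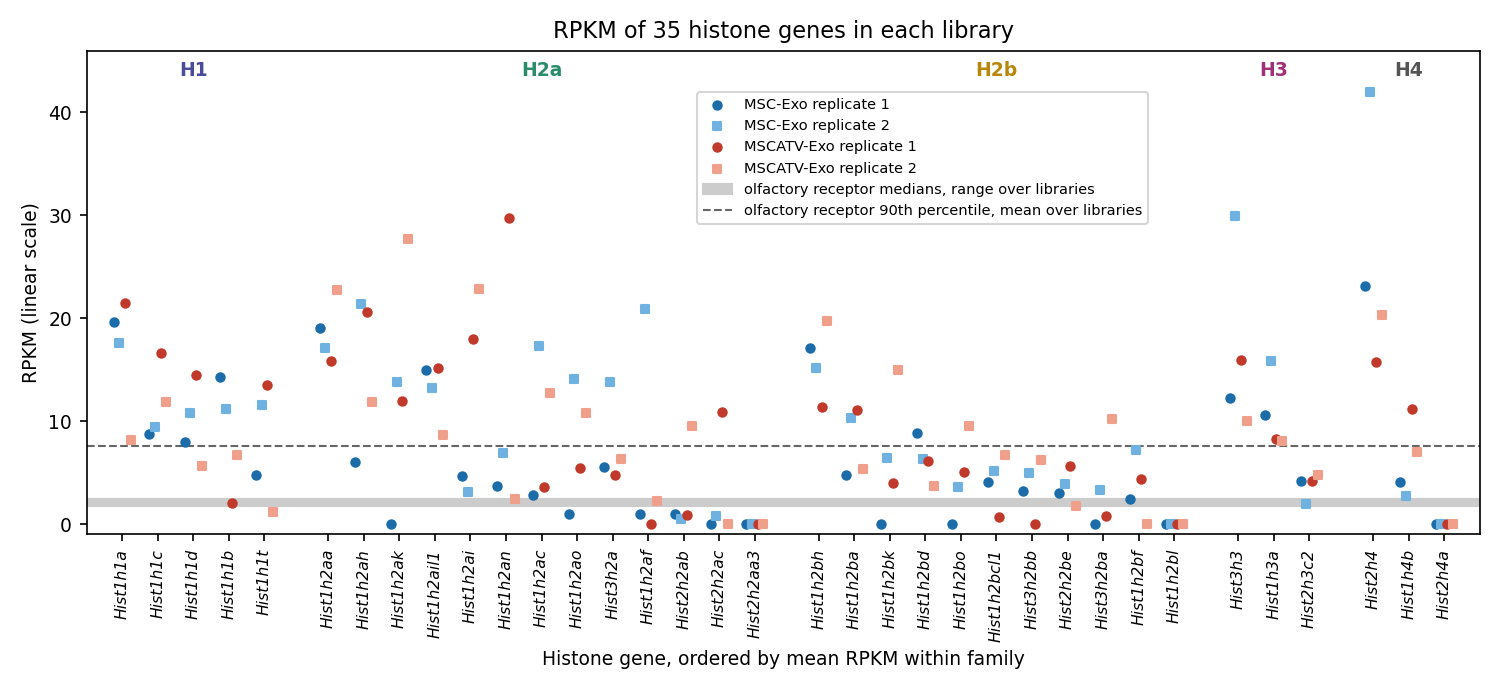
RPKM (linear vertical axis) of each of the 35 histone genes in each library, with genes ordered by mean RPKM within H1, H2a, H2b, H3 and H4. Blue points are MSC-Exo and red points MSCATV-Exo; the grey band spans the olfactory receptor medians of the 4 libraries and the dashed line is their mean 90th percentile. The 2 points of a colour are often as far apart as the 2 colours, and 3 genes lie at 0 throughout.

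No histone gene passed the test between MSCATV-Exo and MSC-Exo. Of the 35 genes, 29 passed the filter on low counts, and 0 of 29 had an edgeR adjusted p under 0.05; among all 33480 genes tested the share called was 0%. At an unadjusted edgeR p under 0.05 there was 1 histone gene, Hist1h2ai, or 3.45% of 29, beside 3.69% of all genes tested. DESeq2 called 0 of the 29 and 0.317% of all genes. An unadjusted DESeq2 p under 0.05 was found in 2 of the 29 histone genes, beside 2687 of all 33480 genes tested. The log2 fold change was above 0 in 17 of the 29 histone genes (58.6%) and in 49.4% of all genes. The median log2 fold change was 0.19 for the histone genes and -0.01 for all genes. Without MSC-Exo replicate 1 the histone median was -0.09, and without MSCATV-Exo replicate 1 it was -0.18, so the sign of this median rested on single libraries. All 6 exosome markers also had log2 fold changes above 0, with 0 called by edgeR. Their summed counts, divided by their summed gene lengths, gave 9.49, 10.2, 10.6 and 13.0 RPKM. The part of these markers in the histone values was not tested. Without a scaling factor beyond the library total, the median of all genes moved to -0.11, and that of the histone genes was 0.09.

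The groups did not overlap in 8 of the 29 tested histone genes (27.6%), beside 33.5% of all genes tested. MSCATV-Exo was higher in 5 of these, Hist1h1c, Hist1h2ai, Hist1h2bo, Hist1h4b and Hist2h3c2, where the share of all genes was 16.1%. It was lower in 3, Hist1h1b, Hist1h3a and Hist2h4, where the share of all genes was 17.4%. The share of separated histone genes was thus no larger than the background. By family, MSCATV-Exo was higher in 3 of 5 tested H1 genes, 6 of 9 H2a, 6 of 10 H2b, 1 of 3 H3 and 1 of 2 H4. The family medians of the log2 fold change were 0.01, 0.19, 0.13, -0.59 and 0.39. Each family thus held genes with differences of both signs.

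**Figure D3:**
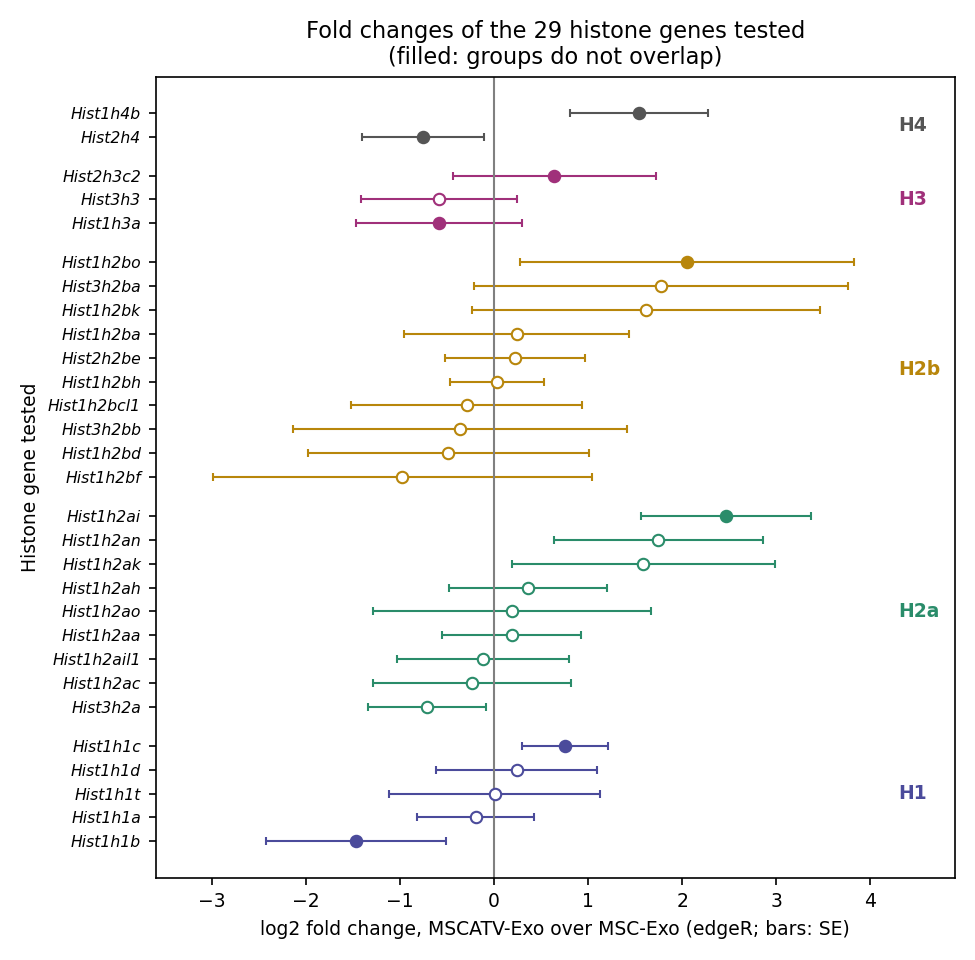
Log2 fold change (horizontal axis, MSCATV-Exo over MSC-Exo, edgeR) of the 29 histone genes tested, with bars of 1 SE, grouped by family. Filled points are the 8 genes whose groups do not overlap; they lie on both sides of 0, and Hist1h2ai at 2.47 is the farthest from it.

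Counts were also summed over each family, since some copies within a family may be nearly identical in sequence. This was not checked here, and it need not hold for all genes of a family. If each read was counted once, such a sum does not depend on how reads were divided among the copies counted here. Whether reads with several matches were dropped or counted more than once is not given in the sources used here. All 35 genes together had 140.8, 220.2, 228.4 and 188.7 CPM. The mean was 180.5 ± 56.1 CPM in MSC-Exo and 208.5 ± 28.1 CPM in MSCATV-Exo (SD, n = 2), a log2 ratio of 0.21 (two-sided exact permutation p = 0.667). With 2 libraries against 2, the smallest p this test can give is 0.333. The groups overlapped, and the 2 MSC-Exo replicates differed 1.56-fold, more than the 1.16-fold between the group means. Without MSC-Exo replicate 2 the log2 ratio was 0.57, and without MSC-Exo replicate 1 it was -0.09.

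H1 summed to 44.5, 49.3, 67.5 and 33.0 CPM, a log2 ratio of 0.10 (exact permutation p = 1). The 2 MSCATV-Exo libraries differed 2.05-fold and lay on either side of MSC-Exo, and without MSCATV-Exo replicate 1 the log2 ratio was -0.51. H2a summed to 31.5, 79.2, 77.4 and 68.6 CPM, a log2 ratio of 0.40 (exact permutation p = 1). Here MSC-Exo replicate 1 alone was low, and without it the log2 ratio was -0.13; without MSC-Exo replicate 2 it was 1.21. H2b had 36.2, 49.5, 43.9 and 56.2 CPM and a log2 ratio of 0.22 (exact permutation p = 0.667). H3 had 14.8, 22.5, 17.02 and 13.7 CPM and a log2 ratio of -0.28, while H4 had 13.9, 19.7, 22.5 and 17.1 CPM and a log2 ratio of 0.24 (exact permutation p = 0.667 for each). Summed RPKM, which gives short genes the same weight as long ones, turned the H4 log2 ratio to -0.41 and that of H1 to -0.19, and total counts without a scaling factor turned H1 to -0.02. With single libraries left out, the log2 ratio ran from 0.0082 to 0.47 for H2b, from -0.55 to 0.06 for H3 and from -0.0011 to 0.52 for H4, so their size, and for H3 and H4 the sign, also rested on single libraries. In no family were the groups separate, and 3 of the 5 families were lowest in MSC-Exo replicate 1 and 2 in MSCATV-Exo replicate 2.

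**Figure D4:**
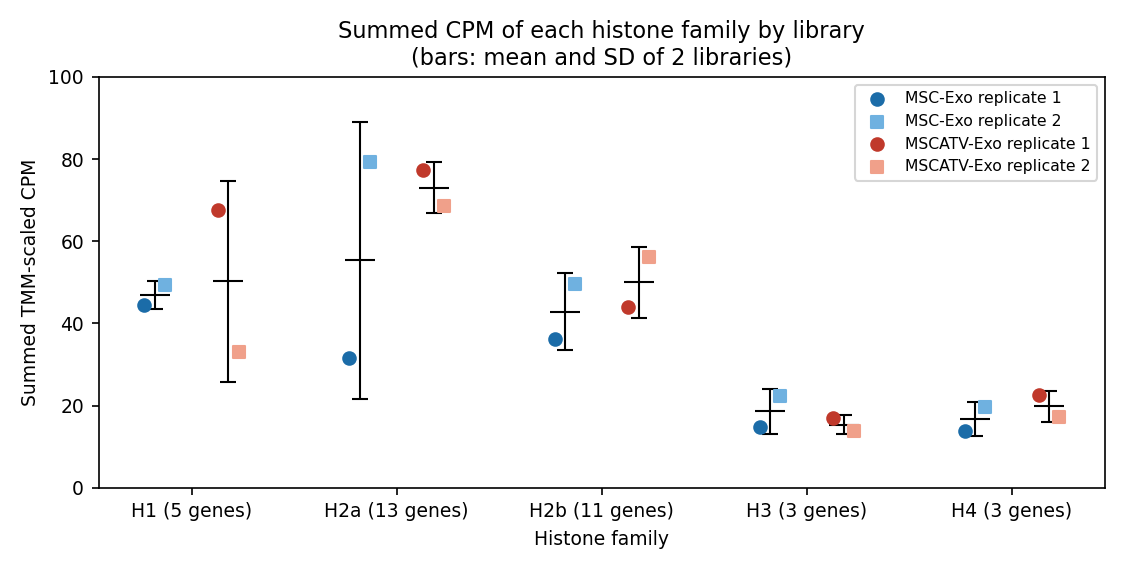
Summed CPM (linear vertical axis from 0, scaled with TMM factors) of each histone family in the 4 libraries. Points are libraries and black bars are the mean and SD of the 2 libraries of a group. In every family the values of the 2 groups overlap, and the widest gaps between replicates are those of H2a in MSC-Exo and of H1 in MSCATV-Exo.

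The spread between replicates was large for these genes, as it was for other genes of their abundance or length. In MSC-Exo, 13 of the 29 tested histone genes (44.8%) differed more than 2-fold between the 2 libraries, beside 31.3% of all genes tested. In MSCATV-Exo it was 14 of 29 (48.3%), beside 37.4%. Among the 23723 genes in the abundance range of the histone genes, 1.64 to 17.9 CPM, the shares were 39.2% and 46.1%. The median biological coefficient of variation, the edgeR measure of replicate spread, was 0.639 for the histone genes and 0.599 for all genes in that range. Other protein-coding genes between the lower and upper quartile of the histone lengths had shares of 44.4% and 51.9%. The median coefficient of these 726 tested genes was 0.799. The 14 tested histone genes of that length had shares of 50% and 57.1% and a median coefficient of 0.632. Across the 35 genes, the Spearman correlation of RPKM was 0.62 between the MSC-Exo replicates and 0.42 between the MSCATV-Exo replicates, and it ran from 0.31 to 0.61 across groups. These correlations are over genes of the same libraries, which share length and mapping properties, and are given as a description. For all protein-coding genes they were 0.61 to 0.66, and for olfactory receptor genes 0.32 to 0.43. Libraries of a group were therefore not always more alike in their histone genes than libraries of different groups. Of the 32 genes with a count, the highest CPM was in the 4 libraries in 2, 8, 11 and 11 genes, and the lowest in 10, 5, 7 and 11.

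A comparison in the authors' deposited table gave a different number of calls. Of the 32 histone genes listed with a q-value there, 14 had q under 0.05, beside 34.3% of all genes in that table; the test behind these q-values is not stated in the sources used here. Per the authors' deposited table, MSCATV-Exo was the higher group in 10 of the 14 and the lower one in 4. The 14 divide evenly by the library values, with 7 whose groups did not overlap and 7 whose groups did. The matching shares by direction and by overlap were not worked out for all genes with q under 0.05. These counts are therefore a description and cannot be set against a background. Hist1h2ai had a log2 ratio of 2.38 and a q of 9.29e-07 in the authors' deposited table. Hist1h2an, with 1 high library, had a log2 ratio of 1.60 and a q of 0.000135 there, and its edgeR unadjusted p was 0.146.

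The germline-restricted genes Hist1h1t, Hist1h2aa, Hist1h2ba and Hist3h3, which are known from testis or oocytes, were all above the background limit when averaged over the 4 libraries. Their mean levels were 7.76, 18.7, 7.88 and 17.1 RPKM, each above the olfactory receptor 90th percentile. Of the other 31 histone genes, 18 (58.1%) were above it, and the medians were 12.5 RPKM for the 4 genes and 6.34 RPKM for the other 31. In single libraries, Hist1h1t had 4.77, 11.5, 13.5 and 1.20 RPKM and Hist1h2ba had 4.77, 10.3, 11.1 and 5.32. The 90th percentile of each library was 8.24, 7.38, 7.53 and 7.32 RPKM. Both genes were thus below it in MSC-Exo replicate 1 and MSCATV-Exo replicate 2, while Hist1h2aa and Hist3h3 were above it in every library. The 4 germline-restricted genes summed to 17.6, 31.8, 30.6 and 16.4 CPM. The first and last libraries were the low ones, 1 from each group, and the log2 ratio of the group means was -0.07. Reads of another gene with a similar sequence could be counted for these genes, but no sequences were compared. Whether reads with several matches were kept is not given in the sources used here.

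By position, 24 of the 35 genes lay on chromosome 17, 6 on chromosome 2, 4 on chromosome 10 and 1 on chromosome 4. The genes on chromosome 17 formed 2 stretches, chr17:43422454-43817717 with 13 genes and chr17:44520484-44841382 with 11, which are 702766 bases apart. The first stretch had 428, 566, 723 and 419 counts, and MSCATV-Exo was higher in 8 of its 11 tested genes. The second had 150, 271, 256 and 378 counts, and MSCATV-Exo was higher in 6 of 11. The stretches thus differed in which library was highest, and the median log2 fold change was 0.19 in both. The genes on chromosome 10 had 86, 212, 86 and 140 counts, highest in MSC-Exo replicate 2. The 3 closest neighbour pairs that start on opposite strands and point away from each other were looked at after their values were seen. Hist2h2ac and Hist2h2be are 101 bases apart, and both were highest in MSCATV-Exo replicate 1, with 30 and 86 counts. Hist1h2aa and Hist1h2ba are 264 bases apart; the first was highest in MSCATV-Exo replicate 2 and the second in MSCATV-Exo replicate 1. Hist3h2bb and Hist3h2a are 217 bases apart; Hist3h2bb had 13, 20, 0 and 26 counts and Hist3h2a was highest in MSC-Exo replicate 2.

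Several of these values cannot be tied to 1 gene alone. Of the 35 genes, 13 overlapped another row of the gene table, 10 of them among the tested genes, and the library kit does not mark strand. Hist1h2an has the same position and the same 4 counts as the pseudogene row ENSRNOG00000057700, so the same reads were listed under both. Hist1h2aa and Hist1h2ba lie within the long non-coding RNA LOC100909739, which had 8, 76, 18 and 21 counts. Hist1h1c, Hist1h2af, Hist1h2ah and Hist1h3a lie wholly or in part within the span of LOC102548682, a gene with 66, 133, 69 and 94 counts, and Hist2h4 lies within that of Hist2h3c2. Of the 3 genes at 0, Hist1h2bl and Hist2h4a overlapped another row. In the 19 tested genes without an overlap, MSCATV-Exo was higher in 11 and the median log2 fold change was 0.03. A further 21 histone genes stand in the table under LOC or RGD symbols and are outside the rule; this set was drawn up after the values were seen. They summed to 93.3, 128.0, 106.9 and 128.0 CPM, 0 of 15 tested were called by edgeR, and their log2 ratio was 0.09 (exact permutation p = 0.667).

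Related genes were described from 4 lists. Of 13 histone variants encoded outside these clusters, many of them made independently of DNA replication, 12 were found and 11 tested; MSCATV-Exo was higher in 6 and lower in 5, with a median log2 fold change of 0.02. H3f3b, which encodes the replacement histone H3.3, had 108, 134, 141 and 148 counts and a mean of 14.4 RPKM. H2afz, which encodes H2A.Z, had 45, 57, 62 and 42 counts and a mean of 11.4 RPKM, and H2afj was at 0 in all libraries. The median variant had 6.505 RPKM on average, beside 7.76 RPKM for the median replication-dependent gene.

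Of 26 genes for histone gene transcription and 3′ end processing, 24 were found and tested, with 16 higher and 8 lower in MSCATV-Exo and a median log2 fold change of 0.18. In edgeR 0 of 24 were called, and 2 (8.33%) had an unadjusted p under 0.05, beside 3.69% of all genes tested. Npat, the coactivator of histone gene transcription, had 69, 94, 294 and 112 counts, a log2 fold change of 1.32 ± 0.49 and an unadjusted edgeR p of 0.022. Its MSCATV-Exo replicate 1 was far above the other 3 libraries. Cstf3, a subunit of the cleavage stimulation factor, had 20, 16, 45 and 80 counts, a log2 fold change of 1.78 ± 0.79 and an unadjusted edgeR p of 0.0466. Slbp, whose product binds the histone stem-loop, had 35, 8, 56 and 29 counts, and its groups overlapped.

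Of 17 genes for histone chaperones and the acetyltransferase Hat1, all were tested, with 10 higher and 7 lower in MSCATV-Exo, 0 called by edgeR, and a median log2 fold change of 0.16. Nap1l1, a chaperone of H2a and H2b dimers, had 269, 317, 400 and 588 counts, a log2 fold change of 0.74 ± 0.29 and an unadjusted edgeR p of 0.0255, the 1 gene of this list under 0.05 (5.88%, beside 3.69% of all genes tested). Of 34 S phase genes, all tested, 20 were higher and 14 lower, the median log2 fold change was 0.04, and 0 had an unadjusted edgeR p under 0.05. Mki67, a marker of dividing cells, had 308, 288, 334 and 337 counts. Pcna, the sliding clamp of DNA polymerase, had 15, 26, 20 and 56. Summed over the list, the S phase genes had 658.5, 659.7, 714.0 and 664.4 CPM, an SD of 0.811 CPM between the MSC-Exo replicates, where the histone genes had 56.1. Between these 2 libraries the histone genes differed 1.56-fold, the LOC and RGD histone genes 1.37-fold and the variants 1.35-fold. The processing genes differed 1.26-fold, the chaperone genes 1.10-fold and the S phase genes 1.00-fold. Between the MSCATV-Exo replicates the order of the SDs was reversed, with 35.1 CPM for the S phase genes and 28.1 CPM for the histone genes. There the histone genes differed 1.21-fold, the LOC and RGD histone genes 1.20-fold and the variants 1.32-fold. For the processing, chaperone and S phase genes it was 1.03-fold, 1.17-fold and 1.07-fold.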

How the data were processed

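RNA sequencing of exosomes was available for 4 rat MSC libraries, 2 MSC-Exo and 2 MSCATV-Exo, made with the NEBNext Ultra kit from total RNA per the labels' protocols. TopHat2 and the rat builds rn6 and Rnor_6.0 are named in the submitters' processing notes; the read counter, its treatment of reads with several matches, and the annotation release are not given in the sources used here. The authors deposited whole-number counts per gene and, per the file headers, RPKM and gene length, together with a comparison table of log2 ratios, p-values and q-values. Positions are those of the deposited table. No rat reference was at hand, so no sequence is shown.

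The counts went into a quasi-likelihood F test in edgeR 4.0.16 (R 4.3.3) after filterByExpr with a minimum count of 10 and TMM scaling. P-values are two-sided and adjusted by Benjamini and Hochberg over all 33480 genes tested, with a threshold of 0.05. The fit was checked on simulated data. CPM were scaled with the TMM factors. Sums per family were compared with an exact permutation test. The alternatives tried were a replicate block, each library left out in turn, no filter, a mean of at least 1 CPM, summed RPKM, total counts, RLE factors, DESeq2 1.42.0, and limma 3.58.1 on log2(RPKM + 1) and log2(RPKM + 0.1).

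Genes described with full values were the 3 with the highest mean RPKM in each family, the 3 with the smallest p in each direction among genes whose groups did not overlap, and the germline-restricted genes. The histone genes and the other lists were chosen with earlier results of these data known. The non-coding RNA tables were not used.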

Additional observations from a re-analysis of the deposited data

How the results depend on the processing

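No histone gene was called in any alternative run. Over all genes, where the main test called 0, DESeq2 called 106, the fit without a filter 8, and leaving out 1 library gave 1 to 168 calls. Fitted with the replicate block, 4 genes were called over all genes and 0 histone genes. Deviations of same-numbered libraries had a correlation of -0.000516. This value cannot tell whether same-numbered libraries shared an animal, culture or batch, which the labels do not say. The median log2 fold change of the histone genes was 0.016 with that block, -0.033 and -0.039 with limma on log2(RPKM + 1) and log2(RPKM + 0.1), and -0.18 to 0.49 with 1 library left out. The log2 ratio of the summed histone CPM ran from -0.087 to 0.57 with 1 library left out. The cause of these changes was not tested.

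Of 17 histone genes described with full values and tested, 3 changed direction in fits on all libraries. With limma on log2(RPKM + 1) and log2(RPKM + 0.1), the log2 fold change was -0.0082 and -0.022 for Hist1h1d, -0.59 and -0.84 for Hist1h1t, and -0.097 and -0.11 for Hist1h2bh. With total counts it was -0.14 for Hist1h1t and -0.056 for Hist1h2bh, with the replicate block -0.63 and -9.92e-05, and without a filter -0.0048 for Hist1h1t. With 1 library left out, 8 of the 17 changed direction: Hist1h1a (-1.14 to 0.38), Hist1h1d (-0.67 to 0.80), Hist1h1t (-2.70 to 0.89), Hist1h2aa (-0.019 to 0.37), Hist1h2ah (-0.30 to 1.56), Hist1h2ba (-0.47 to 0.91), Hist1h2bh (-0.34 to 0.33) and Hist3h3 (-1.11 to 0.21). The other 9 kept their direction in every alternative run. Among these, the groups did not overlap in Hist1h1b, Hist1h1c, Hist1h2ai, Hist1h3a, Hist1h4b, Hist2h3c2 and Hist2h4. For such genes, leaving out 1 library could hardly reverse the direction, so a kept direction there is no separate check. A group left with 1 library was assumed to vary like the other. Precision was limited by the 2 libraries a group, by a biological coefficient of variation of 0.559 over all genes, and by median histone counts of 16 to 29 in a library.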
